A study of Homo sapiens with 21 samples.

Results

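Megakaryocyte and platelet genes were followed through 2 human leukaemia cell lines, as 10 genes chosen by symbol: GP1BA, GP1BB, GP9, CD9, PF4, THBS1, TUBB1, PLEK, RAB27B and FLI1. They are 10 of the 28008 genes in the count tables, and each had its own row in both tables. Messenger RNA was sequenced in 21 libraries, 3 in each of 7 groups and in 2 sequencing batches. In batch 1, "resistant 1" was OCI-AML3 labelled as StAMP resistant, with genotype Res, treatment StAMP and biological replicate 1. K562 was the parental line, genotype WT, with no treatment given. Vehicle was OCI-AML3, genotype WT, with DMSO, and parental was OCI-AML3, genotype WT, with no treatment given. In batch 2, "resistant 2" was the second biological replicate with genotype Res and treatment StAMP, beside resistant 1 and a vehicle group labelled as in batch 1. OCI-AML3 is an acute myeloid leukaemia line of myeloid type, and K562 is labelled erythroleukaemia and derives from blast-phase chronic myeloid leukaemia. StAMP is not spelled out in the labels, while the series title mentions stapled oncolytic peptides. The sources used here do not say how the resistant cells were selected or whether they are clones. They also do not say whether the 3 libraries of a group came from different cultures, and the p-values then reflect only how those libraries vary, which may be technical.

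Megakaryocytes are large bone marrow cells that shed platelets from long cytoplasmic extensions called proplatelets. They share a progenitor with red cells, and GATA1 works in both lineages, whereas FLI1 favours the megakaryocyte over the erythroid fate. Platelets carry the GPIb-IX receptor complex for von Willebrand factor, store proteins in alpha granules and serotonin and nucleotides in dense granules, and keep their disc shape through a ring of microtubules. K562 cells are known for an erythroid programme with fetal and embryonic globins and can be driven towards megakaryocyte traits by phorbol esters.

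The labels of the resistant libraries have to be read with care. Library depth ran from 14.1 to 21.1 M (mega) counts in batch 1 and from 30.7 to 51.3 M counts in batch 2. Across 10767 genes, Pearson correlations of log expression in resistant 1 of batch 1 were 0.978 to 0.980 with K562 and 0.511 to 0.514 with vehicle, and genes are not independent replicates. In batch 2, correlations with K562 were 0.900 to 0.930 for resistant 2 and 0.910 to 0.940 for resistant 1. All 18 erythroid markers averaged above 1 CPM (counts per mega count of the library, with the library size scaled for composition) in each of the 3 resistant groups and in K562, against 2 of 18 in each vehicle and parental group, where HBA1, HBA2 and HBZ had 0 counts. Their summed level was 6476 to 6646 CPM in resistant 1 and 6540.4 to 6811 CPM in K562, against 126 to 133 CPM in vehicle and 253 to 297 CPM in parental libraries of batch 1. In batch 2 the sum was 1667 to 2798 CPM in resistant 2 and 2605 to 3227 CPM in resistant 1, against 105 to 164 CPM in vehicle. Of 16 monocyte and neutrophil markers, 3 were above 1 CPM in each resistant group and in K562, against 14 or 15 in vehicle and parental. The 9 libraries labelled resistant OCI-AML3 therefore had K562-like profiles. Most monocyte and neutrophil markers seen in OCI-AML3 averaged 1 CPM or less in them, and LYZ, CD68 and ITGAM stayed above it. Every comparison of resistant with vehicle libraries below rests on them, and in those comparisons the resistance label and the difference between the lines cannot be told apart. The comparison of K562 with parental OCI-AML3 does not use them. It is given beside the results of the detected members, and only in part beside those of other genes.

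Of the 10 genes, 6 were detected and 4 were nearly silent. No group had a full megakaryocyte profile. Of 19 megakaryocyte markers, the 10 genes included, 7 averaged above 1 CPM in resistant 1, 7 in K562, 6 in vehicle and 7 in parental libraries of batch 1, and 8 in resistant 2, 6 in resistant 1 and 4 in vehicle of batch 2. TUBB1 and RAB27B were high where PLEK and FLI1 were nearly absent, and the libraries divided along that line into K562 with all resistant libraries on one side and vehicle with parental OCI-AML3 on the other. CD9 and THBS1 followed another pattern, in which the vehicle group of batch 1 stood highest. Calls were made at an adjusted p under 0.05 in the two-sided quasi-likelihood test of edgeR, with Benjamini-Hochberg adjustment over all genes tested, and all adjusted p-values below come from that test. GP1BA, GP1BB, GP9 and PF4 did not pass the filter on low counts in any comparison, and FLI1 did not pass it between resistant 1 and K562. In these bulk libraries fewer cells that express a gene and less of its RNA per cell cannot be told apart.

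Read against all genes, the counts of called genes were as follows. Between resistant 1 and vehicle in batch 1, 2 of the 6 tested genes were called higher and 4 lower, where 44% of all genes tested were called higher and 42.1% lower. In batch 2 resistant 1 had 3 higher and 3 lower, against 39.9% and 35.8% of all genes, and resistant 2 had 3 higher and 2 lower, against 40.2% and 35.9% of all genes. K562 had 2 higher and 3 lower than parental OCI-AML3, where 42.6% and 42.5% of all genes were called. Most genes differed between the lines, so a called member is in itself common here, and the sizes of the differences carry the description. The median log2 fold change of the tested members was -2.10 in resistant 1 against vehicle in batch 1, beside 0.02 over all genes tested, and the members' median in K562 against parental OCI-AML3 was -0.89, beside 0.00 over all genes. In batch 2 the members' median had the other sign, at 2.04 in resistant 2 and 0.56 in resistant 1 against vehicle, beside 0.07 over all genes in both comparisons, so the members had no common direction.

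**Figure D1:**
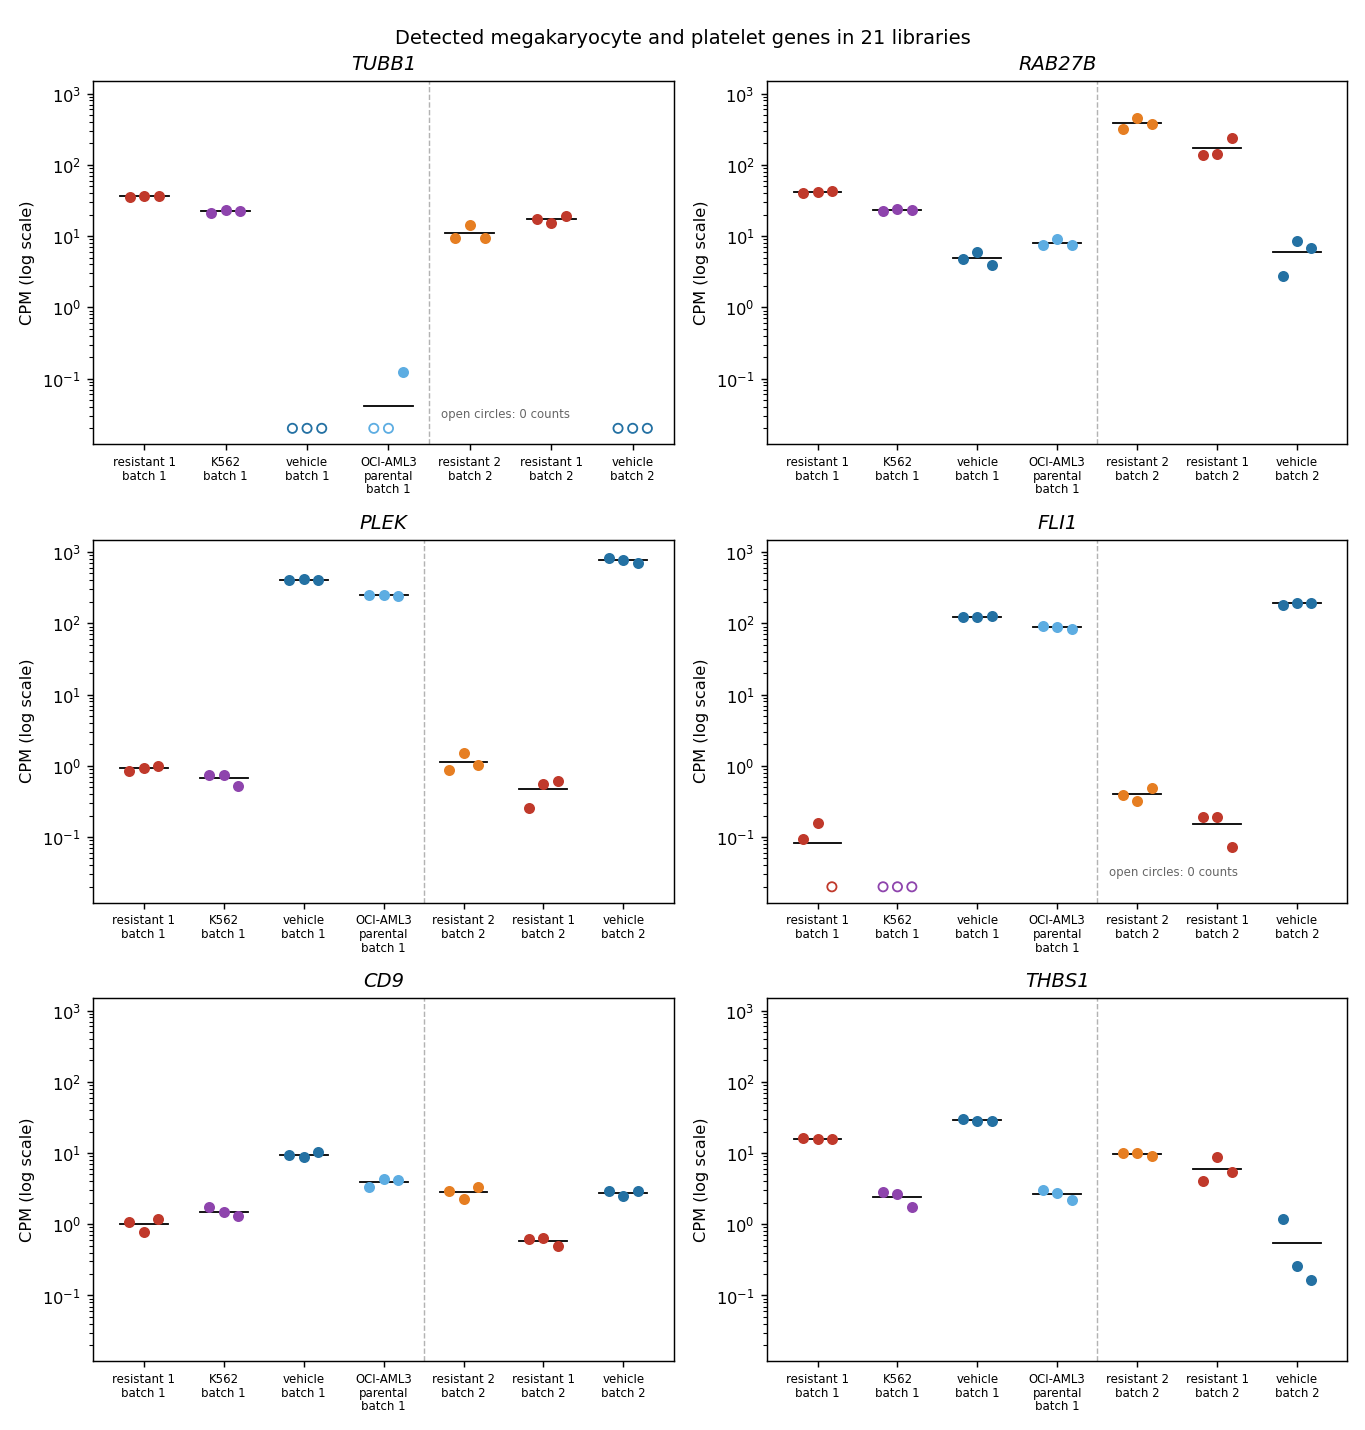
Level of each detected gene in every library, as CPM on a log axis, with the batch 1 groups left of the dashed line and the batch 2 groups right of it. Points are single libraries, bars are means of 3, and open circles at the foot of a panel are libraries with 0 counts. TUBB1 and RAB27B are high in resistant and K562 libraries, PLEK and FLI1 in vehicle and parental libraries, and THBS1 is highest in vehicle of batch 1 and lowest in vehicle of batch 2.

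The GPIb-IX receptor, by which platelets hold on to von Willebrand factor at a wound, had almost no counts in the rows of its chain genes in any group. Over all 21 libraries, with 579.6 M counts together, GP1BA, GP1BB, GP9 and PF4 took 10 counts. GP1BA (the alpha chain, which binds von Willebrand factor, chr17:4932277-4935023 in hg38) had 1 count in resistant 2 and 4 in resistant 1 of batch 2, 1 in resistant 1 of batch 1 and 0 in K562 and in all vehicle and parental libraries. On the opposite strand CHRNE overlaps GP1BA by 2162 bases and had 33 counts over all libraries. How reads over both genes were counted is not given, so the level of GP1BA is uncertain. GP9 (the glycoprotein IX chain, chr3:129060779-129062406) had 2 counts, both in a single library of resistant 1 in batch 1. The most that any of these genes reached in a library was 2 counts, so they were all below the 3 counts taken here as the floor, which corresponds to 0.132 to 0.200 CPM in batch 1 and 0.0646 to 0.107 CPM in batch 2. These floors cover counting error only.

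GP1BB (the beta chain, chr22:19723539-19724771) had 0 counts in every library, but its level is uncertain. It lies on the same strand as SEPTIN5 with an overlap of 686 bases, and the count tables hold a separate readthrough row, SEPT5-GP1BB. That row had 65 counts in resistant 1, 48 in K562, 25 in vehicle and 26 in parental libraries of batch 1. The corresponding counts in batch 2 were 32 in resistant 2, 18 in resistant 1 and 8 in vehicle. Reads from GP1BB that fell in the readthrough row could not be told apart from those of SEPT5, whose own row had 0.121 CPM or less in resistant 1 of batch 1 and in all other groups except parental, at 0.172 CPM. GP5, which codes for the platelet glycoprotein V associated with this receptor, was at most 0.116 CPM in any library, in resistant 2.

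The promoter of GP9 is shown because GP9 is a textbook target of GATA and ETS factors in megakaryocytes and stayed silent in libraries with either factor. The RefSeq window (GRCh38.p14, plus strand, 250 bases before to 50 after the start) was searched on both strands for the GATA motifs AGATAA and TGATAA and the ETS motifs CGGAAG and AGGAAG. Capitals mark the matches, here a pair of overlapping ETS matches on the minus strand. Other GATA cores were not searched, so the ggataa before the ETS pair is neither marked nor counted here.
GP9 chr3:129060529-129060828: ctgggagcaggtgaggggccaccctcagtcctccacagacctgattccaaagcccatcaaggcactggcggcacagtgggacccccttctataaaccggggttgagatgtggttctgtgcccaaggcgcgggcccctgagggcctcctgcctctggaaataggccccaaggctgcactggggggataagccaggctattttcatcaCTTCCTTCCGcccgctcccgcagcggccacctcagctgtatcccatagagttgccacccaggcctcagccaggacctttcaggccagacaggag
Of all 35116 promoters of that length, 16.3% held a GATA match, 46.9% an ETS match and 6.59% both. RefSeq windows were found for 7 of the 10 genes, 11 windows in all. Of these, 5 held an ETS match and 1 a GATA match of the motifs searched. A match describes letters and is not a measured binding site.

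CD9 (chr12:6199715-6238271), a tetraspanin of the platelet and leukocyte surface that is also used as a marker of megakaryocyte progenitors, was low in all groups. In batch 1 CD9 had 1.07, 0.783 and 1.18 CPM in resistant 1, and 1.73, 1.47 and 1.30 CPM in K562. Vehicle libraries had 9.28, 8.92 and 10.3 CPM of CD9, and parental libraries 3.36, 4.29 and 4.11 CPM. Neither K562 nor resistant 1 overlapped with vehicle or parental libraries. CD9 fell in resistant 1 against vehicle (log2 fold change -3.28, SE 0.17, adjusted p = 6.44833e-16) and was lower in K562 than in parental OCI-AML3 (-1.51, SE 0.21, adjusted p = 8.29434e-07). It was also higher in vehicle than in parental libraries (log2 fold change 1.26, SE 0.13, adjusted p = 3.14817e-08), so the size of its fall depended on the control: against parental libraries it was -2.02 (SE 0.21, adjusted p = 9.31778e-10). Between resistant 1 and K562 the call was missed, with a log2 difference of -0.54 and an interval from -1.07 to -0.01 (adjusted p = 0.08977). That interval is approximate and leaves out 0, although the unadjusted p of the edgeR test was 0.058.

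In batch 2, the resistant groups parted in CD9. Resistant 2 had 2.95, 2.25 and 3.28 CPM, resistant 1 had 0.624, 0.632 and 0.500 CPM, and vehicle had 2.96, 2.46 and 2.89 CPM. Resistant 1 lay below every vehicle library, whereas resistant 2 and vehicle covered the same range. The fall in resistant 1 was -2.25 on the log2 scale (SE 0.27, adjusted p = 3.08258e-06). For resistant 2 against vehicle the log2 difference was 0.02, with an interval from -0.46 to 0.49 (adjusted p = 0.957316). The difference of resistant 2 over resistant 1 was itself called (log2 2.27, SE 0.27, adjusted p = 5.05573e-05).

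PF4 and THBS1 code for proteins stored in alpha granules, and they did not go together. PF4 (platelet factor 4, a chemokine that binds heparin, chr4:73980811-73982027) had 1 count in resistant 1 of batch 2, 1 in vehicle of batch 1 and 0 elsewhere. PPBP, which codes for another alpha granule chemokine, reached at most 0.451 CPM, in vehicle of batch 1. By their own rows, both granule chemokines were thus scarce in both lines. An annotated protein-coding gene without a symbol overlaps PF4 by 954 bases on the same strand, and no row was matched to it. How reads over both were counted is not given, so the level of PF4 is uncertain.

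THBS1 (thrombospondin 1, an adhesive protein released by activated platelets and made by many other cells, chr15:39581079-39599466) changed sign between batches. In batch 1 THBS1 had 16.1, 15.6 and 15.7 CPM in resistant 1, against 29.7, 28.4 and 28.5 CPM in vehicle. In the same batch it had 2.86, 2.70 and 1.72 CPM in K562, against 2.98, 2.76 and 2.21 CPM in parental OCI-AML3. All libraries of resistant 1 and vehicle were thus above all those of K562 and parental, and vehicle was the higher of the pair. THBS1 fell in resistant 1 against vehicle (log2 -0.92, SE 0.08, adjusted p = 2.10819e-11). Against parental OCI-AML3 it was higher in resistant 1 (log2 2.50, SE 0.12, adjusted p = 4.57369e-17), a comparison chosen after the values were seen. It was also higher in resistant 1 than in K562 (log2 2.75, SE 0.14, adjusted p = 4.97825e-13) and higher in vehicle than in parental libraries (log2 3.42, SE 0.11, adjusted p = 5.3827e-19). No call separated K562 from parental OCI-AML3 in THBS1 (log2 -0.28, interval -0.71 to 0.16, adjusted p = 0.248639).

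In batch 2 the vehicle libraries had hardly any THBS1. Resistant 2 had 9.99, 10.1 and 9.08 CPM, resistant 1 had 4.0, 8.79 and 5.36 CPM, and vehicle had 1.19, 0.258 and 0.166 CPM. Both resistant groups lay above every vehicle library. THBS1 was higher in resistant 1 (log2 3.37, SE 0.50, adjusted p = 4.68885e-05) and in resistant 2 (log2 4.06, SE 0.50, adjusted p = 8.45343e-06). Replicate 1 of vehicle held 51 of the 65 THBS1 counts of its group, and without it the log2 fold changes were 4.78 in resistant 1 and 5.47 in resistant 2. Between resistant 2 and resistant 1 the difference was not called (log2 0.70, interval -0.10 to 1.49, adjusted p = 0.238721). The batch effect on resistant 1 against vehicle was tested as an interaction and came to 4.23 on the log2 scale for batch 2 minus batch 1 (SE 0.54, adjusted p = 6.75851e-05), or 5.64 without that vehicle library. On the opposite strand FSIP1 overlaps THBS1 by 11110 bases, and its level averaged 0.910 CPM or less in resistant 2 and every other group. How reads over both genes were counted is not given, so that level is uncertain.

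TUBB1 (chr20:59019429-59026654) codes for the beta-tubulin of the platelet microtubule ring, and it divided the libraries without overlap. In batch 1 it had 35.8, 36.4 and 36.1 CPM in resistant 1 and 21.1, 22.9 and 22.6 CPM in K562. Vehicle had 0 counts of TUBB1 in all 3 libraries, and parental OCI-AML3 had 0, 0 and 2 counts. In batch 2 it had 9.53, 14.5 and 9.24 CPM in resistant 2 and 17.2, 15.4 and 18.9 CPM in resistant 1, with 0 counts in all 3 vehicle libraries. No library of one side came near the other. Taking 3 counts over the vehicle group as the floor, TUBB1 was at least 711-fold higher in resistant 1 of batch 1 (adjusted p = 1.78329e-22). The same bound was at least 396-fold higher for resistant 2 (adjusted p = 4.00609e-10) and at least 613-fold higher for resistant 1 (adjusted p = 1.7557e-10) in batch 2. K562 exceeded parental OCI-AML3 by a ratio of 576, with a 95% counting interval from 159 to 4761 that reflects the 2 parental counts, all in replicate 3 (adjusted p = 2.7104e-17).

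Within the K562-like libraries TUBB1 was not uniform. It was higher in resistant 1 than in K562 (log2 0.73, SE 0.07, adjusted p = 5.56812e-09). In batch 2 it was lower in resistant 2 than in resistant 1 (log2 -0.62, SE 0.20, adjusted p = 0.0380056), and that call was lost when replicate 1 or 3 of resistant 2, or replicate 1 or 3 of resistant 1, was left out (adjusted p 0.0979 to 0.148). Per length, TUBB1 was a minor tubulin. Its share of the summed CPM per kilobase of 8 beta-tubulin genes was 1.27 to 1.29% in resistant 1 and 0.696 to 0.752% in K562 of batch 1, and 0.411 to 0.527% in resistant 2 and 0.514 to 0.689% in resistant 1 of batch 2. On the opposite strand ATP5E overlaps TUBB1 and averaged at most 0.558 CPM, in vehicle of batch 1. How reads over both genes were counted is not given, so that level does not show how much RNA came from the opposite strand. The TUBB1 promoter is shown beside its all-or-none levels (RefSeq, GRCh38.p14, plus strand), and it held none of the 4 motifs searched, so it has no capitals.
TUBB1 chr20:59019179-59019478: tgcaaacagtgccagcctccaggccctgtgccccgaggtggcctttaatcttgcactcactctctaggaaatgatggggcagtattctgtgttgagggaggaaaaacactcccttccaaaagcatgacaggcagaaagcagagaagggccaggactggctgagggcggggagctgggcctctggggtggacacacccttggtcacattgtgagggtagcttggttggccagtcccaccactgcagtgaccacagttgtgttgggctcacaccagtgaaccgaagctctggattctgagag
The absence of these letters from the window says nothing about which factors act on the gene.

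PLEK (pleckstrin, a main substrate of protein kinase C in platelets that is also abundant in monocytes and neutrophils, chr2:68365282-68397453) ran opposite to TUBB1. In batch 1 PLEK had 0.839, 0.940 and 0.984 CPM in resistant 1 and 0.732, 0.735 and 0.521 CPM in K562. Vehicle libraries had 408, 416 and 407 CPM and parental libraries 248, 252 and 244 CPM. Resistant 1 thus kept 0.204 to 0.240% of the mean vehicle level, and K562 stood at 0.210 to 0.297% of the parental level. PLEK fell in resistant 1 against vehicle (log2 -8.85, SE 0.08, adjusted p = 2.0173e-32) and was lower in K562 than in parental OCI-AML3 (log2 -8.67, SE 0.10, adjusted p = 1.45747e-24). Between resistant 1 and K562 no difference was called (log2 0.50, SE 0.32, adjusted p = 0.184299). In batch 2 it had 0.868, 1.53 and 1.02 CPM in resistant 2, 0.258, 0.550 and 0.607 CPM in resistant 1 and 823, 761 and 702 CPM in vehicle. Resistant 2 lay above every library of resistant 1, at levels far below vehicle. The log2 fold changes against vehicle were -9.40 in resistant 2 (SE 0.23) and -10.75 in resistant 1 (SE 0.25), both called. Vehicle itself was higher than parental in batch 1 (log2 0.71, SE 0.04, adjusted p = 5.58339e-13). The monocyte and neutrophil markers were high in the same libraries as PLEK, with sums of 100.5 to 103 CPM in resistant 1 and 60.8 to 63.7 CPM in K562, against 3870 to 3963 CPM in vehicle and 3720 to 3749.9 CPM in parental libraries of batch 1, and their part in the level of PLEK was not tested.

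RAB27B (chr18:54717860-54895516), a small GTPase that docks dense and other secretory granules in platelets, had its highest levels in the resistant libraries of batch 2. It had 40.4, 41.2 and 42.4 CPM in resistant 1 of batch 1 and 22.8, 24.3 and 23.5 CPM in K562. Vehicle had 4.82, 6.02 and 3.91 CPM of RAB27B and parental OCI-AML3 had 7.52, 9.22 and 7.42 CPM. In contrast to TUBB1, RAB27B was present in both lines, and none of the 4 groups of batch 1 overlapped. It rose in resistant 1 against vehicle (log2 2.99, SE 0.11, adjusted p = 5.70777e-20) and was higher in K562 than in parental (log2 1.43, SE 0.10, adjusted p = 2.10542e-11), higher in resistant 1 than in K562 (log2 0.84, SE 0.06, adjusted p = 4.20476e-10) and lower in vehicle than in parental (log2 -0.70, SE 0.13, adjusted p = 0.000139152). In batch 2 RAB27B had 319.9, 460.1 and 378 CPM in resistant 2, 138, 139.9 and 239 CPM in resistant 1, and 2.77, 8.65 and 6.74 CPM in vehicle. The 3 groups did not overlap. The log2 fold changes against vehicle were 5.99 in resistant 2 (SE 0.43, adjusted p = 6.46109e-07) and 4.82 in resistant 1 (SE 0.41, adjusted p = 2.47253e-06). Resistant 2 was above resistant 1 (log2 1.17, SE 0.35, adjusted p = 0.0354463). That last call was lost without the low-count filter (adjusted p = 0.113) and when replicate 2 or 3 of resistant 2, replicate 1 or 2 of resistant 1, or replicate 3 of vehicle was left out (adjusted p 0.0511 to 0.117).

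RAB27A, the paralog that serves lysosome-related granules in many blood cells, was expressed in every library and was higher with RAB27B in the resistant groups against vehicle and in K562 against parental (log2 1.34, SE 0.06, adjusted p = 4.34068e-15), but was not called between vehicle and parental (log2 0.06, SE 0.06, adjusted p = 0.449274), where RAB27B was lower in vehicle. In batch 1 RAB27A had 176, 166 and 169 CPM in resistant 1, against 62.5, 65.1 and 60.3 CPM in vehicle, and it rose by 1.39 on the log2 scale (SE 0.05, adjusted p = 2.62959e-19). In batch 2 its log2 fold changes were 2.05 in resistant 2 (SE 0.14, adjusted p = 5.03923e-09) and 1.46 in resistant 1 (SE 0.14, adjusted p = 2.0107e-07). The balance within the pair shifted. Per kilobase of exon, RAB27B made up 26.7 to 28.4% of the RAB27A and RAB27B sum in resistant 1 of batch 1, 18.1 to 18.9% in K562, 9.32 to 12.8% in vehicle and 16.1 to 19.8% in parental libraries. In batch 2 the share was 56.7 to 66.3% in resistant 2, 41.6 to 64.5% in resistant 1 and 4.11 to 13.8% in vehicle. Per length, RAB27B exceeded RAB27A in all 3 libraries of resistant 2. It did so in 1 of the 3 libraries of resistant 1 in batch 2 and in none of batch 1. The lengths are the union of all annotated exons, 11.345 kb for RAB27A and 7.154 kb for RAB27B, and the shares depend on that choice. Without a length, the counts in resistant 2 were near equal, at 48966 for RAB27B and 48526 for RAB27A.

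SYTL4, which codes for a synaptotagmin-like protein that binds Rab27 GTPases at secretory granules, had 21.8, 21.5 and 20.9 CPM in resistant 1, against 0.0502, 0.0440 and 0 CPM in vehicle of batch 1. It was 8.65 to 9.19 CPM in K562 and at most 0.162 CPM in parental OCI-AML3. SYTL4 was the greatest rise among the granule biogenesis and secretion genes in resistant 1 against vehicle (log2 9.0, SE 0.27, adjusted p = 9.05501e-22). The vehicle counts behind it were near the floor, so that fold is imprecise.

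**Figure D2:**
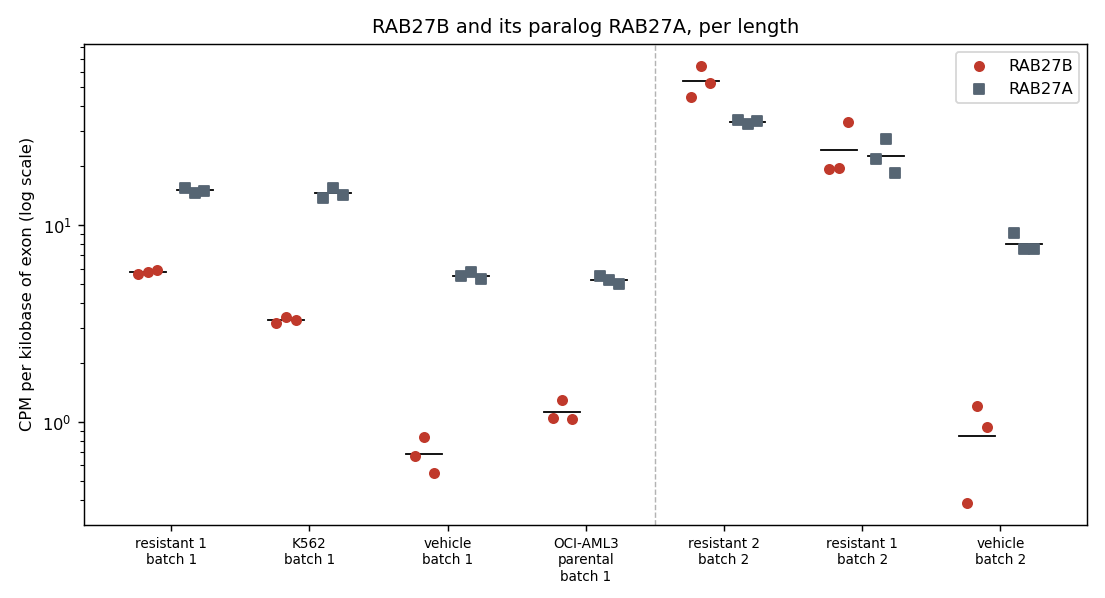
RAB27B (circles) and RAB27A (squares) in every library as CPM per kilobase of exon on a log axis, batch 1 left of the dashed line and batch 2 right of it, with bars at the means of 3 libraries. By length over all annotated exons, RAB27B lies under RAB27A in all batch 1 libraries and above it in resistant 2. There it makes up 56.7 to 66.3% of the pair.

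Of the windows searched, the upstream RAB27B promoter was the only one of the 11 with both kinds of motif, and it is shown for that reason (RefSeq, GRCh38.p14, plus strand). Capitals mark the GATA match before the start and the ETS match just after it, both on the plus strand.
RAB27B chr18:54717607-54717906: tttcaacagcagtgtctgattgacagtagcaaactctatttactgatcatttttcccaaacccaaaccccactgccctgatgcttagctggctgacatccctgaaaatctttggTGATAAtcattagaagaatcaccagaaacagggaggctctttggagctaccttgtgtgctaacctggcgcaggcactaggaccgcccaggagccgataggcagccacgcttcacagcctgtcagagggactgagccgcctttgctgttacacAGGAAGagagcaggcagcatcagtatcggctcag
A second RAB27B window downstream in the gene held neither motif.

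FLI1 (chr11:128686535-128813267), an ETS transcription factor needed for megakaryocyte maturation and also active in monocytic and lymphoid cells, was nearly absent from the libraries in which TUBB1 was high. FLI1 had 0.0932, 0.157 and 0 CPM in resistant 1 of batch 1, which are 2, 3 and 0 counts, and 0 counts in all 3 K562 libraries. Vehicle had 124, 122 and 126 CPM, and parental OCI-AML3 had 91.4, 89.6 and 84.0 CPM. In batch 2 it had 0.388, 0.321 and 0.485 CPM in resistant 2, 0.194, 0.192 and 0.0714 CPM in resistant 1 and 181, 194 and 194 CPM in vehicle. Relative to the mean vehicle level, FLI1 stood at 0.169 to 0.256% in resistant 2 and at 0.0377 to 0.102% in resistant 1 of batch 2. FLI1 fell in resistant 1 of batch 1 (log2 -10.38, SE 0.15, adjusted p = 6.84392e-29). That estimate rests on 5 counts, and it was -11.03 without replicate 2 of resistant 1 and -9.95 without replicate 3. These values lie further apart than the SE conveys. In batch 2 the log2 fold changes were -8.89 in resistant 2 (SE 0.19) and -10.19 in resistant 1 (SE 0.21), both called. With 3 counts over the group as the floor, K562 was at least 1491-fold lower than parental OCI-AML3 (adjusted p = 8.41922e-21). Vehicle was higher than parental (log2 0.47, SE 0.06, adjusted p = 1.81688e-07).

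FLI1 was above 0 in every library of resistant 2 and resistant 1 in batch 2, and resistant 2 lay above resistant 1 in all libraries. The difference was called (log2 1.30, SE 0.32, adjusted p = 0.00994506) and was missed when the vehicle libraries were left out of the fit (adjusted p = 0.0726). SENCR, an antisense transcript that overlaps FLI1 by 4360 bases, followed it, with 0 counts in resistant 1 of batch 1 and in K562, and 244 counts in vehicle and 178 in parental libraries. In batch 2 SENCR had 5 counts in resistant 2, 0 in resistant 1 and 286 in vehicle. The sources used here do not say whether the counting used the strand, so the levels of overlapping antisense genes are uncertain.

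GATA1, the zinc finger factor of the erythroid and megakaryocyte lineages, and FLI1 were high in different libraries. FLI1 was above 1 CPM in 9 libraries, at 84.0 to 194 CPM, and GATA1 in the other 12, at 157 to 228 CPM, and 0 libraries held both. In the remaining libraries FLI1 was at most 0.485 CPM and GATA1 at most 0.0502 CPM. GATA1 had 11814 counts in resistant 1 and 1 count in vehicle of batch 1. ERG, the nearest ETS paralog of FLI1, went the same way, with at most 0.0522 CPM in resistant 1, against 8.88, 7.43 and 7.09 CPM in vehicle of batch 1. ETS1 did not follow that line in batch 2, where it averaged 79.1 CPM in resistant 2, 24.1 CPM in resistant 1 and 75.1 CPM in vehicle, against 1.62 CPM in resistant 1 and 46.6 CPM in vehicle of batch 1. ETS1 averaged 0.492 CPM in K562 and 54.4 CPM in parental OCI-AML3.

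**Figure D3:**
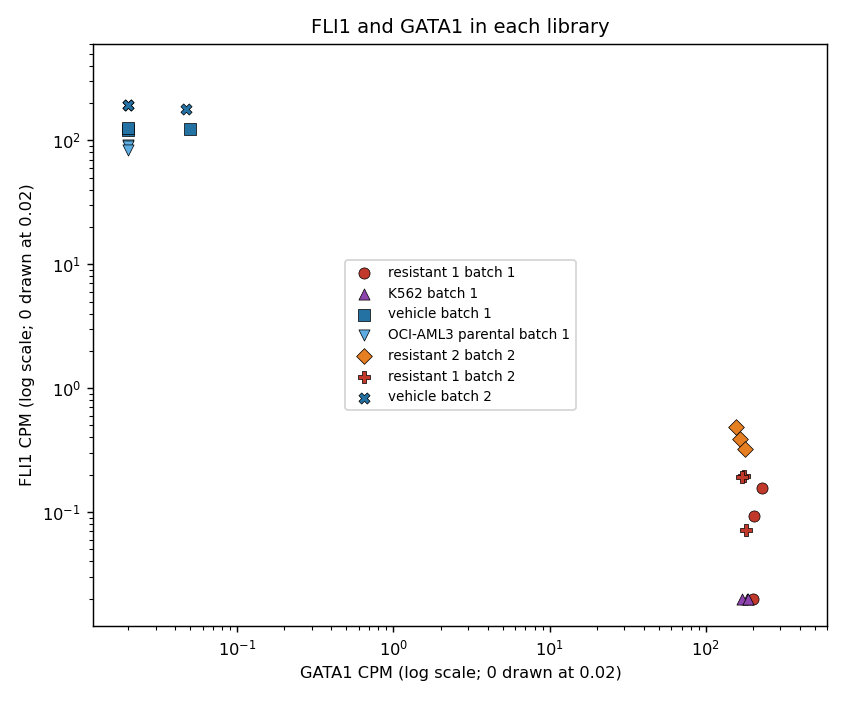
FLI1 against GATA1 in each of the 21 libraries, both as CPM on log axes with 0 drawn at 0.02. The 9 vehicle and parental libraries sit at the upper left with FLI1 of 84.0 to 194 CPM, and the 12 resistant and K562 libraries at the lower right with GATA1 of 157 to 228 CPM.

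The K562-like libraries also differed among themselves, as did the controls. Resistant 1 had 3 of 5 tested members higher than K562 and 0 lower, where 31.3% of all genes were called higher and 28.5% lower. Resistant 2 had 4 of 6 higher than resistant 1 in batch 2 (CD9, PLEK, RAB27B and FLI1) and TUBB1 lower, where 12.4% of all genes were called higher and 11.9% lower. For PLEK, whose values are given above, that difference was 1.34 on the log2 scale (SE 0.29, adjusted p = 0.00417834). Vehicle had 4 of 6 higher than parental (CD9, THBS1, PLEK and FLI1) and RAB27B lower, where 18.7% and 18.3% of all genes were called. Against parental OCI-AML3, resistant 1 had 3 of 6 higher and 3 lower, beside 43.5% and 42.5% of all genes.

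The fold changes of resistant 1 against vehicle were also compared between batches by an interaction term, in which 15% of all genes were called higher in batch 2 and 18.2% lower. Of 6 members tested, 3 were called higher and 1 lower. THBS1 differed most, as given above. RAB27B had the greater rise in batch 2 (difference 1.81 on the log2 scale, SE 0.54, adjusted p = 0.0288482), and that call was lost without the low-count filter (adjusted p = 0.0604) and when any library of resistant 1, or replicate 1 or 2 of vehicle, in batch 1 was left out (adjusted p 0.0534 to 0.0971). CD9 fell less in batch 2 (difference 1.02, SE 0.31, adjusted p = 0.017349), and its call was lost without replicate 2 of resistant 1 in batch 1 (adjusted p = 0.0602). PLEK fell further in batch 2 (difference -1.92, SE 0.30, adjusted p = 0.000105119). For FLI1 the difference was 0.22 with an SE of 0.56 (adjusted p = 0.858376), and for TUBB1 it could not be estimated because vehicle had 0 counts in both batches. Sequencing batch, depth and culture cannot be told apart in this term. Its fit took 1 spread per gene over both batches, although the spread differed for some genes, which limits its p-values. For RAB27B in resistant 1, the SD was 1.00 CPM at a mean of 41.4 in batch 1 and 57.8 CPM at 172 in batch 2. For CD9 it was 0.205 CPM at 1.01 and 0.0741 CPM at 0.586.

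**Figure D4:**
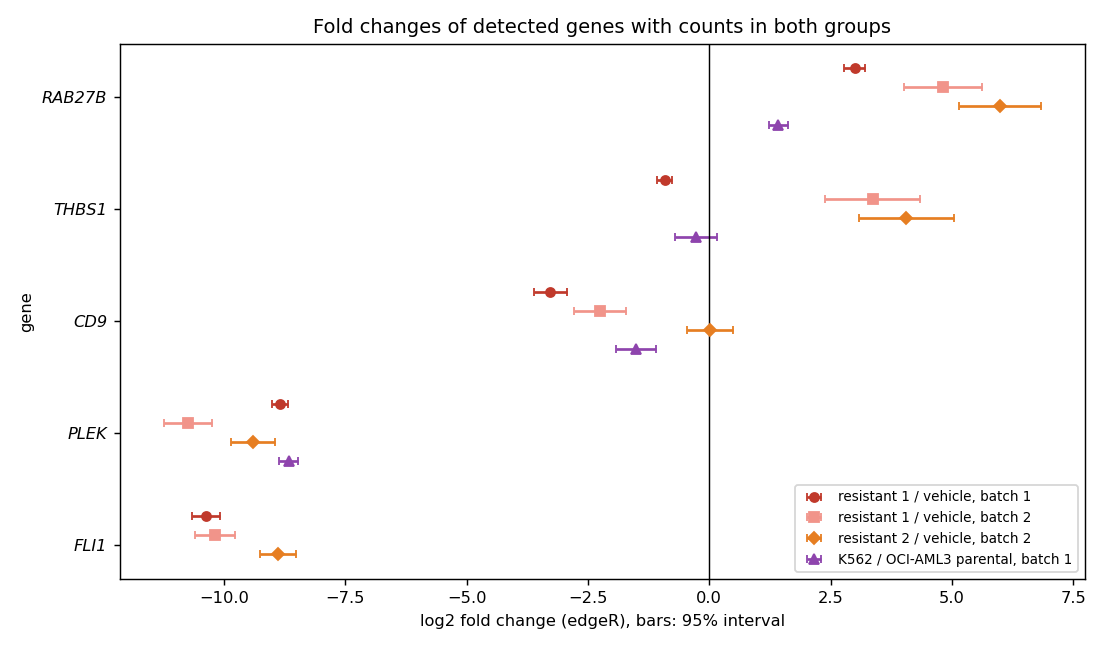
Log2 fold changes from edgeR with 95% intervals for the genes with counts in both groups, in 3 comparisons of resistant with vehicle libraries and in K562 against parental OCI-AML3. RAB27B is positive and PLEK and FLI1 are below -8 wherever drawn, whereas THBS1 is -0.92 in batch 1 and 3.37 in batch 2 for resistant 1, and CD9 is -2.25 for resistant 1 and 0.02 for resistant 2 in batch 2.

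The wider platelet genes moved in both directions. Over 6 lists with 151 genes, 130 were tested between resistant 1 and vehicle in batch 1, of which 54 were higher, 66 lower and 10 not called. These are 41.5% higher and 50.8% lower, beside 44% and 42.1% of all genes, and the median log2 fold change was -0.16. In batch 2, 63 of 132 were higher and 52 lower in resistant 1, and 58 were higher and 53 lower in resistant 2. These are 47.7% and 39.4% in resistant 1, beside 39.9% and 35.8% of all genes, and 43.9% and 40.2% in resistant 2, beside 40.2% and 35.9% of all genes. K562 against parental gave 53 higher and 65 lower of 127, which are 41.7% and 51.2%, beside 42.6% and 42.5% of all genes. The 18 erythroid markers were all called higher in each of these 4 comparisons, and their part in the platelet lists was not tested.

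By role, the surface receptors had 9 higher and 7 lower of 21 tested in resistant 1 of batch 1 (42.9% and 33.3%), and 15 higher and 4 lower of 20 in batch 2 (75% and 20%). The shares of all genes called in resistant 1, against which these and the following lists are read, were 44% higher and 42.1% lower in batch 1 and 39.9% and 35.8% in batch 2. ITGA2B, the alpha chain of the platelet fibrinogen receptor, had 66.3, 77.9 and 65.8 CPM in resistant 1, against 1.96, 2.11 and 2.38 CPM in vehicle of batch 1 (log2 4.98, SE 0.11, adjusted p = 2.23947e-24). It was also well above K562, at 14.2, 13.1 and 13.4 CPM (log2 2.39 for resistant 1 over K562, SE 0.08, adjusted p = 2.96768e-16). Its partner ITGB3 had 7.13, 7.88 and 7.54 CPM in resistant 1, against 0.652, 0.923 and 0.672 CPM in vehicle (log2 3.24, SE 0.19, adjusted p = 5.6255e-15). ITGB3 averaged above 1 CPM in both K562 and parental OCI-AML3. Both chains of this receptor were thus raised against vehicle in libraries where the rows of GP1BA and GP9 were under the floor. The levels of GP1BA and GP1BB are uncertain. PEAR1, an endothelial and platelet receptor, was the greatest rise of the list, at a mean of 10.1 CPM in resistant 1 and 0.0978 CPM in vehicle of batch 1, and FCER1G, the signalling chain of GPVI and Fc receptors, the greatest fall, at 0.213 CPM in resistant 1 and 116 CPM in vehicle. In K562 against parental OCI-AML3 the log2 fold changes were 7.63 for PEAR1 and -9.77 for FCER1G. The list had 13 higher and 8 lower of 21 there (61.9% and 38.1%, beside 42.6% and 42.5% of all genes).

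The transcription factors of the lineage had 9 higher and 10 lower of 20 tested in resistant 1 of batch 1 (45% and 50%, beside 44% and 42.1% of all genes). K562 against parental gave 9 higher and 8 lower of 20 in this list (45% and 40%, beside 42.6% and 42.5% of all genes). GFI1B, a repressor needed for red cells and platelets, averaged 69.2 CPM in resistant 1 and had 0 counts in vehicle of batch 1, and 67.0 CPM in K562 against 0 counts in parental. NFE2, which drives late platelet genes including TUBB1 in mice, had 164, 163 and 156 CPM in resistant 1, against 8.28, 8.84 and 9.96 CPM in vehicle (log2 4.12, SE 0.08, adjusted p = 3.17702e-26). In batch 2 NFE2 was lower in resistant 2 than in resistant 1 (log2 -0.60, SE 0.18, adjusted p = 0.0275495). TUBB1 was also lower there, by a call that was lost when some single libraries were left out. A part of NFE2 in the level of TUBB1 was not tested.

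Granule contents had 11 higher and 10 lower of 22 tested in resistant 1 of batch 1 (50% and 45.5%, beside 44% and 42.1% of all genes). ANGPT1, an angiopoietin carried by platelets, averaged 103 CPM in resistant 1 and 1.10 CPM in vehicle of batch 1. CCL5, a chemokine of alpha granules and lymphoid cells, averaged 0.366 CPM in resistant 1 and 106 CPM in vehicle. In resistant 2 against resistant 1 the list had 11 higher and 5 lower of 24 (45.8% and 20.8%, beside 12.4% and 11.9% of all genes). K562 against parental gave 9 higher and 10 lower of 20 in it (45% and 50%, beside 42.6% and 42.5% of all genes). The secretion machinery had 13 higher and 10 lower of 25 in resistant 1 of batch 1 (52% and 40%), with LYST, the regulator of lysosome-related granule size, at 8.39 CPM in resistant 1 and 1191 CPM in vehicle of batch 1. The cytoskeletal list had 6 higher and 16 lower of 23 (26.1% and 69.6%, beside 44% and 42.1% of all genes), in which TPM1 (tropomyosin) averaged 38.5 CPM in resistant 1 and 2.67 CPM in vehicle, and SPTAN1 (alpha spectrin) 15.5 CPM in resistant 1 and 282 CPM in vehicle. Platelet signalling genes had 6 higher and 13 lower of 19 (31.6% and 68.4%), with a median log2 fold change of -0.76, beside 0.02 over all genes. PRKCQ, a protein kinase C, averaged 34.3 CPM in resistant 1 and 4.40 CPM in vehicle, and PTPN6, a phosphatase of blood cells, 3.97 CPM in resistant 1 and 555 CPM in vehicle. In K562 against parental OCI-AML3 the named genes of these lists went the same way. The log2 fold changes were 5.77 for ANGPT1, -7.60 for CCL5, -8.11 for LYST, 2.84 for TPM1, -3.16 for SPTAN1, 2.32 for PRKCQ and -7.66 for PTPN6. There the secretion list had 12 higher and 9 lower of 25 (48% and 36%) and the cytoskeletal list 7 and 16 of 23 (30.4% and 69.6%). The signalling list had 3 and 14 of 18 (16.7% and 77.8%), beside 42.6% and 42.5% of all genes.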

How the data were processed

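The authors deposited raw gene counts, 1 table per sequencing batch, with whole numbers and no normalization. Per the labels' protocols, total RNA was made into strand-specific mRNA libraries and sequenced in pairs. The build was hg38 and the tools included DESeq2 1.22.1, per the submitters' processing notes. The sources used here do not give the annotation or the strand setting of the counting. The members and gene lists were chosen with earlier results of these data known.

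Here edgeR 4.0.16 in R 4.3.3 was used with TMM scaling, filterByExpr, robust quasi-likelihood fits and Benjamini-Hochberg adjustment over all genes tested. The batch 1 OCI-AML3 groups were fitted together, as were the batch 2 groups, and K562 was fitted with each partner alone. DESeq2 1.42.0 was an alternative, beside another scaling, no filter, other groups in the fit, a replicate block and leaving out single libraries. CPM use 1 TMM scaling of all 21 libraries, and folds come from each fit. Depth was 14.1 to 51.3 mega counts, and a floor of 3 counts was used. The SE is the size of the log2 fold change divided by the square root of the F statistic of its test. Where a group had few counts, as for FLI1 and PLEK in resistant libraries and SYTL4 in vehicle, it can be too small. Intervals of log2 fold changes are ± 1.96 SE and are approximate. Outside the 10 members, a gene was named as the greatest called rise or fall of its list in resistant 1 against vehicle of batch 1 at 10 CPM or more, or from a fixed set around the members. SENCR, ATP5E, FSIP1 and CHRNE are named as overlapping genes. Positions are from the GENCODE annotation of hg38, and promoters from RefSeq. Levels per kilobase use the union of all annotated exons of a gene, which can be longer than its transcripts. The scripts were tested on simulated data in which few genes changed, by small folds and with a fixed spread. That test does not cover the many large differences between these lines.

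Same-numbered libraries deviated together in batch 2 between resistant 1 and the other groups, where every pair's correlation was over 0.1. Between resistant 1 and vehicle they were 0.212, 0.266 and 0.217, and unlike-numbered pairs were at most 0.0618. That pairs those libraries by the data and not by the labels. Between resistant 2 and resistant 1 the numbers do not clearly pair the libraries. There replicate 3 of resistant 2 and replicate 1 of resistant 1 reached 0.323, against 0.293, 0.391 and 0.158 for same-numbered pairs. Over all batch 2 groups same-numbered correlations were 0.0849 to 0.391. In batch 1 they were -0.356 to 0.310, so there the numbers do not pair the libraries. Replicate libraries differed by more than sampling noise in every group, so none was counted as a duplicate.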

Additional observations from a re-analysis of the deposited data

Results flagged for a closer look

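Differences of resistant 1 against vehicle between the batches were found by the interaction test in 4 of 6 members tested, 3 higher and 1 lower, where 15% of all genes were called higher and 18.2% lower. On the log2 scale, batch 2 minus batch 1, they were 4.23 for THBS1, 1.81 for RAB27B, 1.02 for CD9 and -1.92 for PLEK. The RAB27B call was lost under other settings (adjusted p up to 0.0971), and the CD9 call without replicate 2 of resistant 1 in batch 1 (adjusted p = 0.0602). For THBS1 the fold change was 3.37 in batch 2 and -0.92 in batch 1, and its vehicle libraries had 0.166 to 1.19 CPM in batch 2 and 28.4 to 29.7 CPM in batch 1.

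Resistant 2 differed from resistant 1 in batch 2 in 5 of 6 members tested, 4 higher and 1 lower, where 12.4% of all genes were called higher and 11.9% lower, by log2 differences of 2.27 for CD9, 1.34 for PLEK, 1.30 for FLI1, 1.17 for RAB27B and -0.62 for TUBB1. The calls were lost under other settings for RAB27B (adjusted p up to 0.117), FLI1 (adjusted p = 0.0726) and TUBB1 (adjusted p up to 0.148). For CD9 the fold change against vehicle was 0.02 in resistant 2 and -2.25 in resistant 1.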

How the results depend on the processing

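Of 613 values of single members under 28 other settings, 590 kept their direction and their side of the threshold, 18 kept their direction and lost the call, 0 gained one and 5 turned direction. THBS1 in resistant 1 against vehicle of batch 1 turned to 2.50 with parental in place of vehicle libraries, a setting chosen after seeing the data. CD9 in resistant 2 against vehicle, not called, was -0.10 to 0.16 when single libraries were left out, and below 0 without replicate 1 or 3 of resistant 2 or replicate 2 of vehicle. FLI1 in the batch difference, not called, was -0.24 to 0.88, and below 0 without replicate 3 of resistant 1 in batch 1. The calls of TUBB1, RAB27B and FLI1 between resistant 2 and resistant 1, and of RAB27B and CD9 between batches, were lost as given with each; the cause was not tested. Leaving out single libraries, members called lower in resistant 2 against resistant 1 ranged from 0 to 1, members called higher in the batch difference from 1 to 3, and all genes called in resistant 2 against resistant 1 from 1117 to 2505 higher and from 1206 to 2309 lower. Fewer libraries were fitted there. The replicate block changed 0 of 45 member calls, with 2 higher and 4 lower in resistant 1 against vehicle of batch 1 as before. Low depth limits FLI1 in resistant libraries (2 to 21 counts where present), PLEK there, and TUBB1 in OCI-AML3.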
